A study of Mus musculus with 10 samples.

Results

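RNA of 32 genes that mark other cells of a tumour was described in sorted CD8 T cells. The genes are 14 myeloid markers (Lyz2, Csf1r, Cd68, Adgre1, C1qa, C1qb, C1qc, Itgam, Fcgr3, Apoe, Ms4a7, Cd14, Mrc1 and Arg1), 3 genes of MHC class II presentation (Cd74, H2-Ab1 and H2-Aa), 6 B cell markers (Cd79a, Cd79b, Ms4a1, Ighm, Igkc and Cd22) and 9 melanoma markers (Pmel, Mlana, Tyr, Tyrp1, Dct, Mitf, Sox10, Gpnmb and Slc45a2). They were taken by name from the 54408 genes with a row, and the list was chosen with earlier results of these data known. Of the 32, 19 passed the filter on low counts and were among the 13081 genes tested.

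The T cells were P14 cells, which carry a transgenic receptor for the gp33 peptide, on a C57BL/6 background. Both groups carried floxed Nfat5 alleles. The 5 WT libraries came from cells with no Cre, and the 5 NFAT5 KO libraries from cells with Cre under the Cd4 promoter, which is active in developing T cells. After 48 hours of activation in culture, the cells went into mice that bore a subcutaneous B16-gp33 tumour, grown from a mouse melanoma line that makes gp33. Tumours were taken 7 days after the transfer for the sort of CD8 T cells. Tumours had been strained and enriched for leukocytes on a Percoll gradient, so a library can hold RNA of any leukocyte or tumour cell that stayed with the sort. The labels give no ages. They do not tie a library to 1 animal either, so the tests below weigh differences against a spread between libraries that may partly be technical. Libraries are named by group and by their label, for example WT 678_2 or NFAT5 KO 679_2.

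Library totals ran from 22444310 to 32001285 estimated counts, and 3 counts, taken here as the floor of detection, are 0.0955 to 0.134 CPM, that is counts scaled to a common library total. T cell genes dominated: 14 genes of T cell identity summed to 11340 to 12680 CPM in WT and 12450 to 13380 CPM in NFAT5 KO libraries, against 323.4 to 852.5 CPM for the 32 markers together, most of it Ighm. Nfat5, counted over the whole gene, lay at 9.20 to 18.3 CPM in WT and at 11.6 to 26.8 CPM in NFAT5 KO libraries, with NFAT5 KO 679_2 highest. The labels do not name the deleted exons, so this total does not check the genotype. Calls lost without NFAT5 KO 679_2, among the markers and the genes of other lists, are named below. Some other values are also given without it. Mitochondrial genes held 0.470% of counts in NFAT5 KO 678_5 and 1.36% in NFAT5 KO 678_6, the extremes of the 10 libraries.

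Tumour macrophages are recognised by complement C1q, whose A, B and C chains assemble into one protein and are encoded side by side, by lysozyme (Lyz2) and by the surface receptor F4/80 (Adgre1). Cells that present antigen to CD4 T cells carry MHC class II, built from an alpha chain (H2-Aa), a beta chain (H2-Ab1) and the invariant chain Cd74 that escorts them. B cells carry a membrane immunoglobulin, of which Ighm encodes the mu heavy chain and Igkc the kappa light chain, on the signalling pair Cd79a and Cd79b, and melanoma cells make pigment with Tyr, Tyrp1 and Dct on fibrils of Pmel, under the factors Mitf and Sox10.

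The promoters of 5 markers are shown because their RNA followed different patterns across the libraries. C1qb and H2-Aa varied with Lyz2, Apoe and the other C1q chains, and Cd68 stayed near 1 level. Tyr and Dct had at most 10 and 28 counts in a library. Each promoter is the 250 bases before the RefSeq start, on the gene's strand in GRCm38.p6, and 17 of the 32 markers had an entry used here. Capitals mark a letter match on either strand to GAGGAA, the core bound by the myeloid factor PU.1, to TCATGTG, the M-box core of pigment genes, or to GATTGG, the Y-box core of MHC class II promoters. A match on the other strand reads as the reverse complement, and no 2 matches overlap in the windows shown.
C1qb, chr4:136886201-136886450, minus strand: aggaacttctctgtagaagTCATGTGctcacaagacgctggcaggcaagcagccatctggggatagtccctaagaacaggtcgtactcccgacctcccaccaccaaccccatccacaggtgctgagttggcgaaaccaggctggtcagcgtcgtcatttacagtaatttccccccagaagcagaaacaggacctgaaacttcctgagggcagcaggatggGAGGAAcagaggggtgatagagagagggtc
Cd68, chr11:69666171-69666420, minus strand: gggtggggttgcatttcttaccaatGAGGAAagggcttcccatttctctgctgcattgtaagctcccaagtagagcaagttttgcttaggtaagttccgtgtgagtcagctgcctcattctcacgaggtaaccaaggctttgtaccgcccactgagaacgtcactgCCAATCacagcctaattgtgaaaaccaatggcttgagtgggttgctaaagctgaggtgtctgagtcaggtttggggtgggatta
H2-Aa, chr17:34287824-34288073, minus strand: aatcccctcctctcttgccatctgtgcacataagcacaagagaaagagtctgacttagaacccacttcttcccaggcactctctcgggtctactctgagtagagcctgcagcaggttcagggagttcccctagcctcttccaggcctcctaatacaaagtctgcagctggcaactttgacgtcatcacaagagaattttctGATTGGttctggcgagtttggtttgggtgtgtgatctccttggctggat
Tyr, chr7:87493513-87493762, minus strand: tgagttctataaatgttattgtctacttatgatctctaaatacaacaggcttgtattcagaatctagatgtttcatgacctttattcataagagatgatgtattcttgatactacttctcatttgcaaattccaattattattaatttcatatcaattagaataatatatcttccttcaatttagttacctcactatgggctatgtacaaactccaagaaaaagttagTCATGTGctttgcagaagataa
Dct, chr14:118052247-118052496, minus strand: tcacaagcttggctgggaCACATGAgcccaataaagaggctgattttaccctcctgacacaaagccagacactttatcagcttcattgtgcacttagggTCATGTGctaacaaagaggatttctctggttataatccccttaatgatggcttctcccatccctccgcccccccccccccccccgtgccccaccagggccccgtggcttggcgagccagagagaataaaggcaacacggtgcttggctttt
GAGGAA stood in 23.3%, TCATGTG in 3.3% and GATTGG in 14.6% of 32851 windows of 250 bases before a start. Counted to the last base of the match, GAGGAA lay 25 bases before the start in C1qb, GATTGG 44 bases before it in H2-Aa, and TCATGTG 16 bases before it in Tyr. Dct held TCATGTG at 226 and at 145 bases, and C1qb held it at 225 bases. Among the marker windows not shown, those of Lyz2, Gpnmb and Ms4a7 held no match, and those of Tyrp1, Cd22 and C1qc held TCATGTG. A match is a stretch of letters only, and the windows were not searched for other motifs.

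By genotype, 2 of the 19 tested markers were lower in NFAT5 KO libraries, Adgre1 and Ighm, and none was higher. Over all 13081 genes, 5.63% were lower and 3.38% higher at the same threshold, an adjusted p below 0.05 in edgeR's quasi-likelihood test over all genes. At an unadjusted p below 0.05, 8 of the 19 were lower (Adgre1, Ighm, Lyz2, C1qb, Fcgr3, Cd74, Cd79b and Cd22) and 0 higher. Of all genes, 12.1% were lower and 11.1% higher at that threshold. The DESeq2 Wald test called 4 lower, with Cd74 and Cd22 added, and 0 higher, beside 8.27% of all genes lower and 6.2% higher. The log2 fold change of NFAT5 KO minus WT was negative for 17 of the 19, with Itgam and Pmel the others, and its median was -1.36, beside 0.02 over all genes tested. Since the 19 passed a filter that a gene can pass through 1 group, these counts describe the markers that passed and not all 32. The 32 were also chosen with earlier results of these data known. In bulk libraries, fewer cells of a type and less RNA per cell cannot be told apart.

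**Figure D1:**
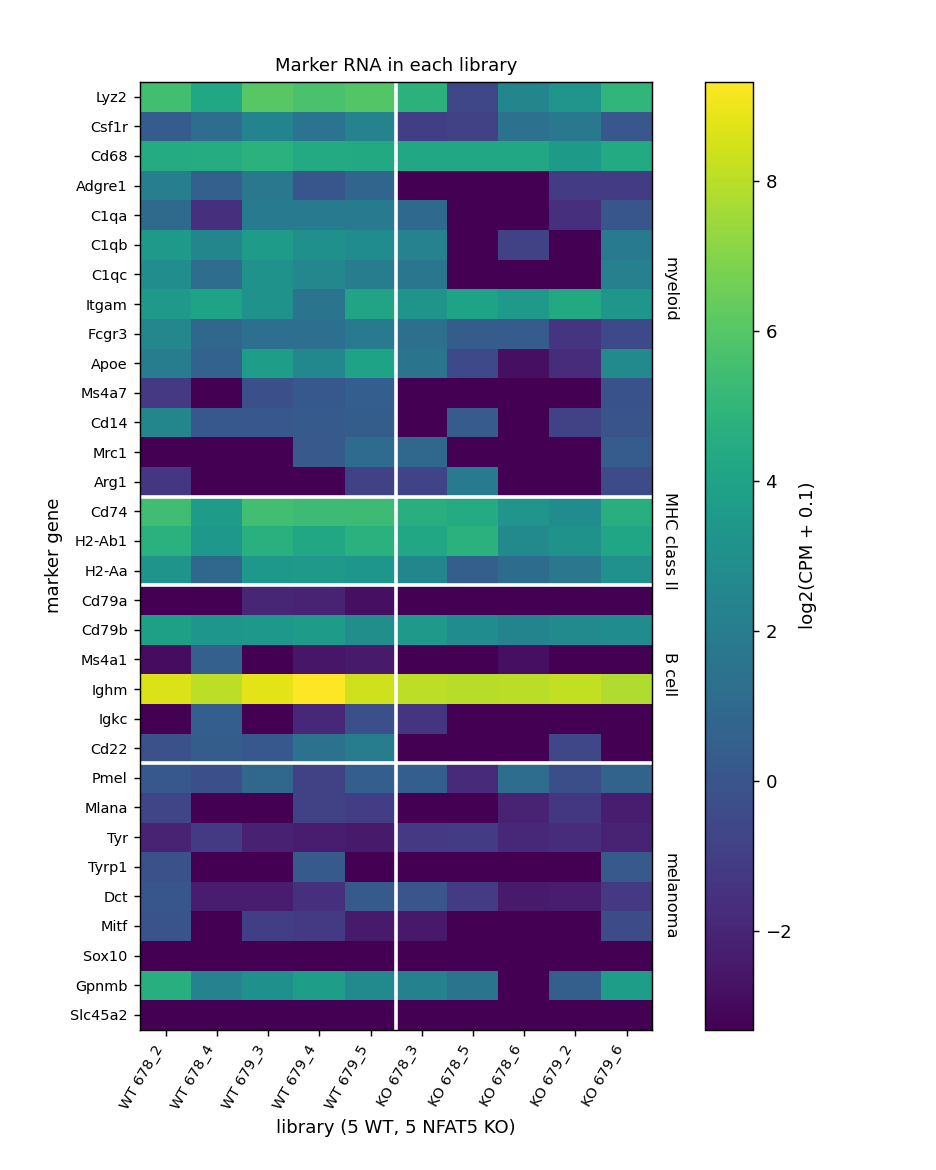
Level of each of the 32 marker genes in each library, as log2(CPM + 0.1), with 5 WT libraries on the left and 5 NFAT5 KO libraries on the right, and white lines between the 4 groups of markers. Ighm is the brightest row in every library, Cd68 is nearly even, and the C1q genes are at or near 0 in NFAT5 KO 678_5, 678_6 and 679_2.

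**Figure D2:**
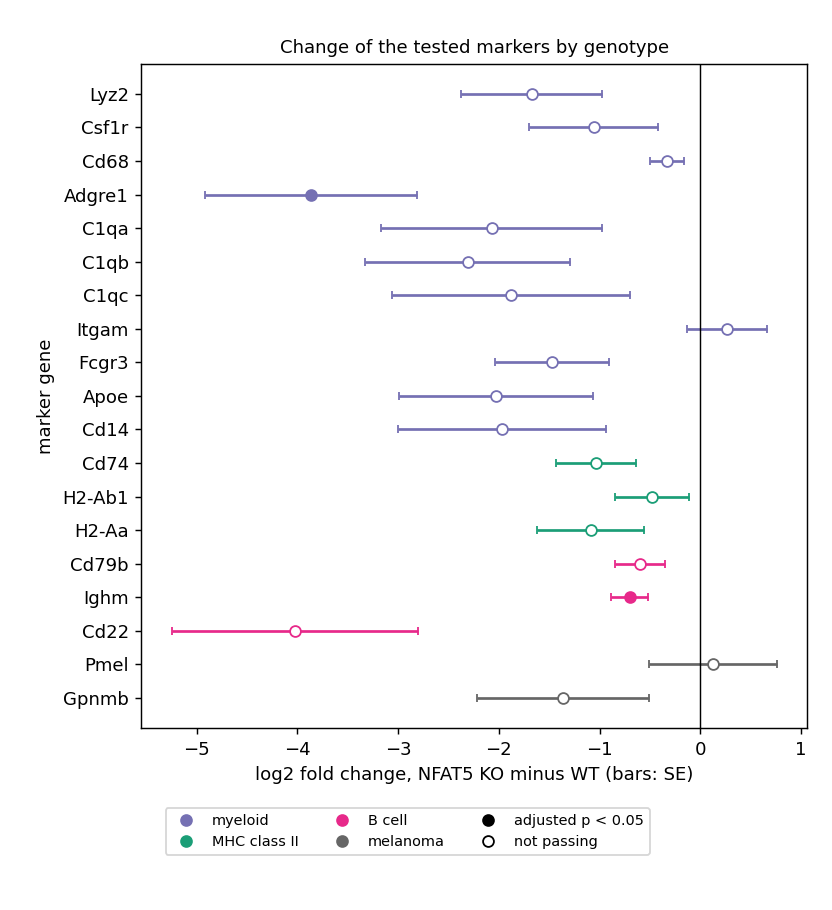
Log2 fold change of NFAT5 KO minus WT for the 19 tested markers, with the standard error as bars, coloured by marker group. Filled points, Adgre1 and Ighm, had an adjusted p below 0.05.

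The C1q genes lie together at chr4:136880129-136886187 (C1qb), chr4:136889804-136893065 (C1qc) and chr4:136895917-136898803 (C1qa) in GRCm38. C1qb was at 11.4, 5.55, 12.8, 8.16 and 6.96 CPM in WT 678_2, 678_4, 679_3, 679_4 and 679_5, and at 4.85, 0, 0.448, 0 and 3.72 CPM in NFAT5 KO 678_3, 678_5, 678_6, 679_2 and 679_6. Each NFAT5 KO library was below each WT library, a pattern shown by 6.41% of all genes tested. The NFAT5 KO libraries themselves split: the 3 genes summed to 238 counts in 678_3 and 283 in 679_6, but to 0, 10 and 7 counts in 678_5, 678_6 and 679_2, whereas the WT libraries held 235 to 784. With that spread the log2 fold change of C1qb was -2.31 (SE 1.02) and its adjusted p was 0.191. C1qc (-1.88, SE 1.18, adjusted p = 0.376) and C1qa (-2.07, SE 1.10, adjusted p = 0.284) did not pass either. Single libraries moved these values. Without NFAT5 KO 678_3 the log2 fold change was -3.10 for both C1qb (adjusted p = 0.112) and C1qa. Without NFAT5 KO 679_6 it was -2.91 for C1qc (adjusted p = 0.228). The weakest fits without 1 library gave -2.0 for C1qb, -1.57 for C1qc and -1.76 for C1qa. The adjusted p reached 0.314 for C1qb (without WT 678_2) and 0.516 for C1qc (without WT 679_3). Without NFAT5 KO 679_2 the adjusted p of C1qa was 0.429. Where the chains were counted, C1qb and C1qc made up most of their sum: over the 7 libraries with at least 20 C1q counts, C1qb held 40.6% to 69.4%, C1qc 26.9% to 49.1% and C1qa 3.0% to 24.5% of their sum, the lowest C1qa share being that of WT 678_4.

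Lyz2, lysozyme of macrophages and neutrophils, was high and low in much the same libraries as C1q. It stood at 44.8, 18.9, 66.2, 51.3 and 61.1 CPM in WT 678_2, 678_4, 679_3, 679_4 and 679_5, and at 28.2, 0.549, 5.51, 9.59 and 31.9 CPM in NFAT5 KO 678_3, 678_5, 678_6, 679_2 and 679_6. The 3 NFAT5 KO libraries with little C1q were also the 3 lowest for Lyz2, and WT 678_4, the lowest WT library, lay below NFAT5 KO 678_3 and 679_6. The means were 48.5 ± 18.5 and 15.2 ± 14.0 CPM (SD, n = 5 each), and the log2 fold change of Lyz2 was -1.67 with an SE of 0.70 (adjusted p = 0.167). Without NFAT5 KO 679_2 the adjusted p of Lyz2 was 0.29. Over the 7 libraries with at least 20 C1q counts, Lyz2 varied 3.50-fold and summed C1q 3.12-fold, and the ratio of Lyz2 to C1q ran from 2.17 to 4.27. The ratio did not hold in the 2 libraries with fewer C1q counts: it was 12.3 in NFAT5 KO 678_6, with 123 Lyz2 and 10 C1q counts, and 40.0 in NFAT5 KO 679_2, with 280 and 7. Apoe, a lipid carrier made by tumour macrophages, was at 1.499 to 15.9 CPM in WT and 0.0448 to 6.21 CPM in NFAT5 KO libraries, again lowest in the same 3, and its ratio to C1q ran more widely over the 7 libraries, from 0.184 to 1.11. Without NFAT5 KO 679_6 the log2 fold change of Apoe went from -2.03 to -3.16 (adjusted p = 0.0860). Over the fits without 1 library its weakest value was -1.65, and the adjusted p reached 0.397, without WT 679_5.

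Adgre1 (chr17:57358691-57483527), the macrophage receptor F4/80, was the myeloid marker that passed the test. Its level was 4.10, 1.36, 3.25, 0.944 and 1.66 CPM in WT 678_2, 678_4, 679_3, 679_4 and 679_5. It was at 0 in NFAT5 KO 678_3, 678_5 and 678_6, and at 0.377 and 0.356 CPM, 11 counts each, in NFAT5 KO 679_2 and 679_6. The groups did not overlap, and Adgre1 was lower by a log2 fold change of -3.86 with an SE of 1.05 (adjusted p = 0.0387). On leaving out 1 library at a time the call held in 4 of 10 fits. It was lost without WT 678_2 (adjusted p = 0.108), 679_3 (0.0883) or 679_5 (0.0644) and without NFAT5 KO 678_3 (0.0574), 678_5 (0.0541) or 678_6 (0.0702), and held without NFAT5 KO 679_2 (0.0427). Adgre1 did not keep a ratio to C1q: NFAT5 KO 678_3 held 238 C1q counts and no Adgre1 count, and NFAT5 KO 679_2 held 7 and 11.

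Among the other myeloid receptors and enzymes, none passed. Fcgr3, an activating receptor for immunoglobulin G, lay at 1.70 to 5.71 CPM in WT and 0.274 to 2.40 CPM in NFAT5 KO libraries (log2 fold change -1.47, SE 0.57, adjusted p = 0.134). Csf1r, the receptor that macrophages need for survival, ran from 1.20 to 5.16 and from 0.407 to 3.29 CPM, and its 873 bases of exon shared with Hmgxb3 on the opposite strand, a gene at 47.9 and 68.7 CPM, make it uncertain. Cd14, a co-receptor for bacterial lipid, was at 5.44 CPM in WT 678_2 and at or below 1.23 CPM in the other libraries, and its log2 fold change went from -1.97 to -1.13 without that library. Ms4a7, Mrc1 and Arg1, genes of differentiated or alternatively activated macrophages, were below the filter with 118, 158 and 153 counts over all libraries, and 102 of the Arg1 counts were in NFAT5 KO 678_5, which held no C1q count.

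Cd68 and Itgam did not follow C1q. Cd68, a lysosomal glycoprotein abundant in macrophages but not limited to them, was at 21.6, 22.9, 26.8, 21.2 and 20.2 CPM in WT 678_2, 678_4, 679_3, 679_4 and 679_5, and at 18.4, 19.1, 19.4, 11.8 and 20.8 CPM in NFAT5 KO 678_3, 678_5, 678_6, 679_2 and 679_6. The groups overlapped, with NFAT5 KO 679_2 alone low, and the highest library was 2.28-fold above the lowest. In NFAT5 KO 678_5, with 0 C1q, 0 Adgre1 and 15 Lyz2 counts, Cd68 still had 522 counts, close to its 452 to 644 counts in the C1q-bearing NFAT5 KO libraries 678_3 and 679_6. Itgam, the integrin chain CD11b that activated CD8 T cells are also known to carry, was at 10.9, 16.1, 8.88, 2.80 and 16.8 CPM in the WT libraries in the same order and at 9.29, 15.8, 11.03, 20.1 and 10.4 CPM in the NFAT5 KO libraries. Its highest value was in NFAT5 KO 679_2 and its lowest in WT 679_4, which held 7 and 516 C1q counts. The log2 fold changes, -0.33 (SE 0.17) for Cd68 and 0.27 (SE 0.40) for Itgam, had adjusted p-values of 0.269 and 0.743. Without NFAT5 KO 679_2 they were -0.23 (adjusted p = 0.414) and 0.05 (adjusted p = 0.964). Which cells in the sort made these RNAs was not tested.

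**Figure D3:**
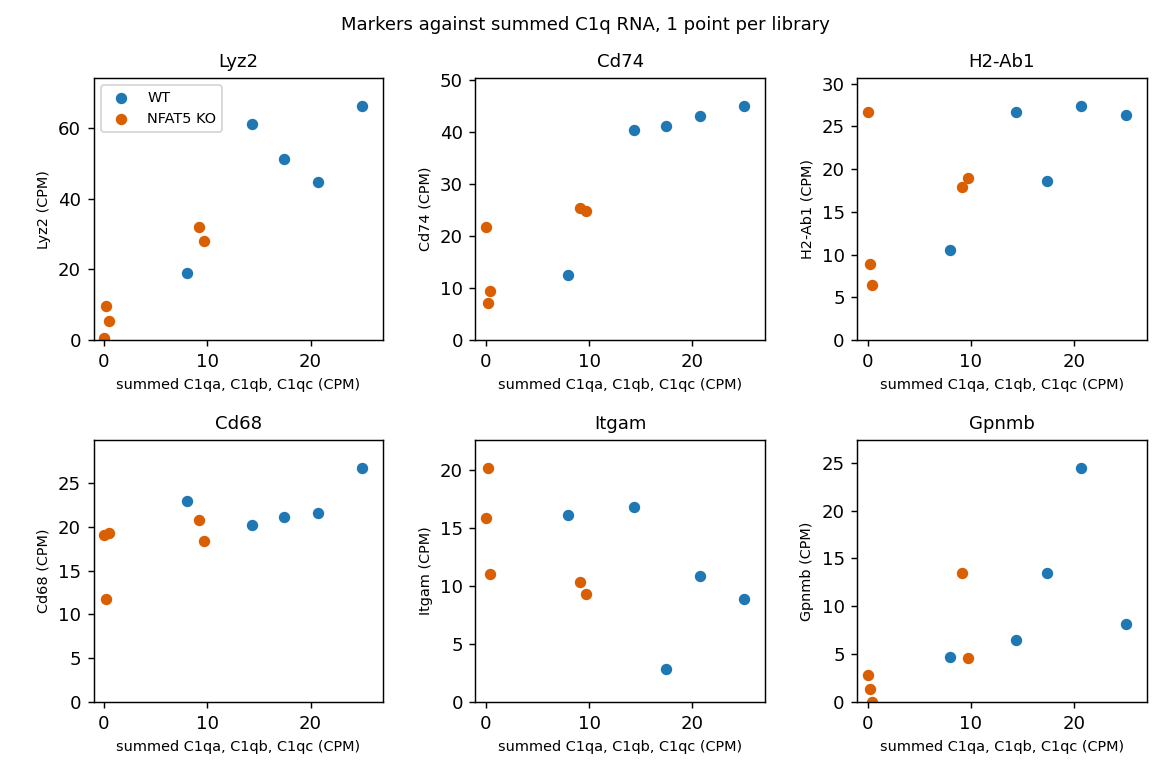
CPM of 6 markers against the summed CPM of C1qa, C1qb and C1qc, 1 point per library, blue for WT and orange for NFAT5 KO, on linear axes. Lyz2 climbs from 0.549 CPM at no C1q to 66.2 CPM at 25.0 CPM of C1q, whereas Cd68 stays between 11.8 and 26.8 CPM and Itgam is as high in libraries with little C1q as in those with much.

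The MHC class II genes had levels between these patterns. Cd74 was at 43.1, 12.5, 45.03, 41.3 and 40.4 CPM in WT 678_2, 678_4, 679_3, 679_4 and 679_5, and at 24.9, 21.7, 9.50, 7.12 and 25.5 CPM in NFAT5 KO 678_3, 678_5, 678_6, 679_2 and 679_6. All WT libraries but 678_4 lay above all NFAT5 KO libraries. Cd74 did not pass, at a log2 fold change of -1.04 with an SE of 0.40 (adjusted p = 0.132). Of the 10 fits without 1 library it passed in 1, that without WT 678_4, at -1.28 (adjusted p = 0.0379). In the others the adjusted p of Cd74 reached 0.246, without WT 678_2. H2-Aa was at 1.84 CPM in WT 678_4 and 9.38 to 11.5 CPM in the other WT libraries, and at 1.32 to 8.29 CPM in NFAT5 KO libraries (log2 fold change -1.09, SE 0.53, adjusted p = 0.245). H2-Ab1 was at 10.6 to 27.4 CPM in WT and 6.41 to 26.7 CPM in NFAT5 KO libraries (-0.47, SE 0.37, adjusted p = 0.480). Without NFAT5 KO 679_2 the adjusted p of H2-Ab1 was 0.675.

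Over the 7 libraries with at least 20 C1q counts, Cd74 was 1.57 to 2.82 and H2-Ab1 1.06 to 1.95 times summed C1q. H2-Aa ran more widely, from 0.230 to 0.905 times summed C1q. The 3 NFAT5 KO libraries with little C1q departed from these ratios. NFAT5 KO 678_6, with 10 C1q counts, held 212 counts of Cd74 and 143 of H2-Ab1, ratios of 21.2 and 14.3. NFAT5 KO 679_2, with 7 C1q counts, held 208 and 259, ratios of 29.7 and 37.0. NFAT5 KO 678_5 had no C1q count, yet 592 counts of Cd74 and 728 of H2-Ab1, its H2-Ab1 level of 26.7 CPM being within the range of the WT libraries, while its H2-Aa was the lowest of all at 36 counts. The ratio of alpha to beta chain therefore differed most in that library, which also held most of the Arg1 counts. Cd74 was counted on 2 main transcripts, and the shorter held 47.4% to 81.4% of its counts with the groups overlapping.

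Ighm (chr12:113418558-113422730), the constant region of the mu heavy chain, was the most abundant marker. Transcripts of this region without a rearranged variable segment are known from T cells as well as B cells. It was at 400.9, 267.4, 445.4, 641.4 and 339.1 CPM in WT 678_2, 678_4, 679_3, 679_4 and 679_5, and at 271.6, 246.2, 257.4, 287.3 and 224.6 CPM in NFAT5 KO 678_3, 678_5, 678_6, 679_2 and 679_6. The NFAT5 KO libraries lay close together and the WT libraries spread above them, with WT 678_4 inside the NFAT5 KO range. Means were 418.8 ± 141 and 257.4 ± 23.9 CPM (SD, n = 5 each), and Ighm was lower by a log2 fold change of -0.70 with an SE of 0.19 (adjusted p = 0.0343). The adjusted p was 0.0425 without WT 679_4, the highest library, but the call was lost without WT 678_2 (0.0698), WT 679_3 (0.0698) or NFAT5 KO 678_5 (0.0595), 678_6 (0.0677), 679_2 (0.0504) or 679_6 (0.0752), and with the label prefix as a block (-0.63, adjusted p = 0.0681). Within libraries of prefix 678 the log2 fold change was -0.38 (adjusted p = 0.542), and within 679 it was -0.90 (adjusted p = 0.172).

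The 2 Ighm transcripts are shown where they part, because the reads on these stretches divide the RNA between a secreted and a membrane form. Each line has the last 30 bases the forms share in lower case, followed in capitals by the coding bases of the next exon stretch that only that form holds, on the minus strand of GRCm38. The membrane form has 6 more coding bases of its own in a later exon, which are not shown.
Ighm-201, secreted form, chr12:113420870-113420928: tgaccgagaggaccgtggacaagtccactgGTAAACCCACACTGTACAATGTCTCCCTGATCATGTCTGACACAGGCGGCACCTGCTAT
Ighm-202, membrane form, chr12:113418953-113419068: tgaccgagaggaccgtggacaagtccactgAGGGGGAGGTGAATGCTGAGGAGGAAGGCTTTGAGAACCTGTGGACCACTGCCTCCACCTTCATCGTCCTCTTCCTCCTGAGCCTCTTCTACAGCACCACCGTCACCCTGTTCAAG
The first stretch encodes the tail of secreted immunoglobulin M and the second the membrane anchor. Of the 1493 bases of the secreted transcript 188 are its own, and of the 1698 bases of the membrane transcript 393, so the split rests on a part of the reads. The membrane form was at 244.5, 144.4, 308.9, 437.0 and 207.5 CPM in the WT libraries, in the order above, and at 133.4, 127.1, 146.9, 156.5 and 119.1 CPM in the NFAT5 KO libraries. The secreted form was at 123.0 to 204.3 CPM in WT and 105.5 to 138.2 CPM in NFAT5 KO libraries. Per form, the means of WT and NFAT5 KO were 268.5 and 136.6 CPM for the membrane form and 150.4 and 120.9 CPM for the secreted one. The membrane form held 61.0%, 54.0%, 69.3%, 68.1% and 61.2% of Ighm counts in WT and 49.1%, 51.6%, 57.1%, 54.5% and 53.0% in NFAT5 KO, with WT 678_4 inside the NFAT5 KO range. This share was not tested.

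**Figure D4:**
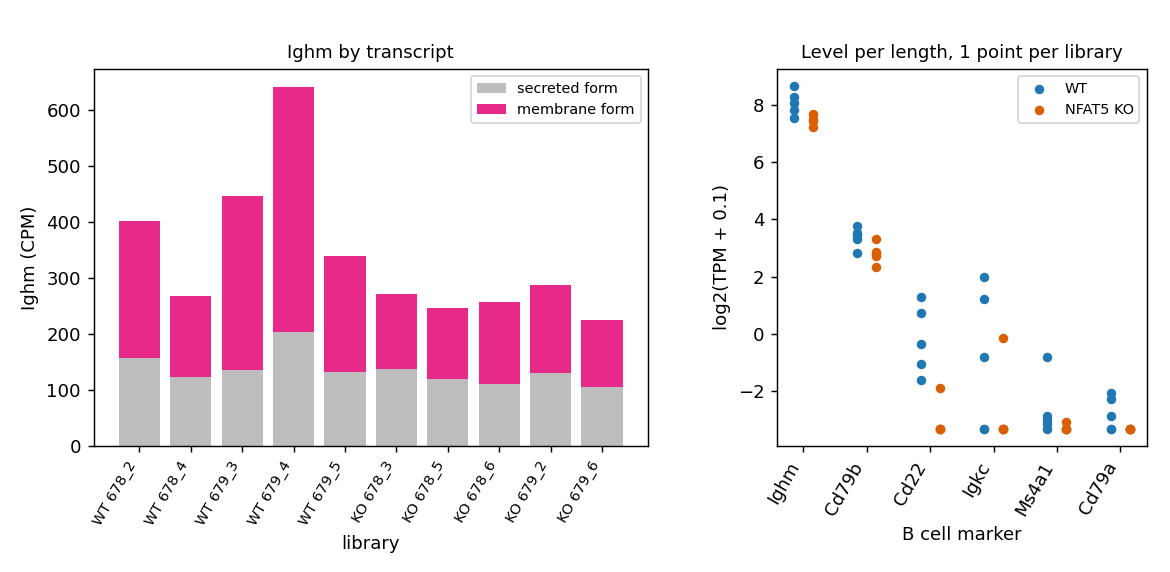
Left, Ighm in CPM per library as stacked bars from 0, grey for the secreted and pink for the membrane transcript, with the pink part largest in WT 679_4 at 437.0 CPM. Right, level per length of 6 B cell markers as log2(TPM + 0.1), 1 point per library, blue for WT and orange for NFAT5 KO, where Ighm lies far above the other markers.

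The partners that a B cell needs for its receptor were not counted in proportion. On the scale of TPM, an abundance corrected for length, Ighm averaged 278.8 ± 84.5 in WT libraries and Cd79b 10.5 ± 2.44, whereas Igkc was at 1.30 ± 1.68 and Cd79a at 0.0560 ± 0.0632. Cd79a had 10 counts over all libraries, 5, 4 and 1 of them in WT 679_3, 679_4 and 679_5. Igkc had 67 counts, in 4 libraries, and Ms4a1, the CD20 antigen of mature B cells, 46, of which 40 were in WT 678_4, which also held 38 of the Igkc counts. Of 17 other B lineage genes, 9 had no count in any library, among them Pax5, Blk, Jchain and both lambda constant genes listed (Iglc2 and Iglc3), and 2 were tested (Ighd and Bank1), neither passing. A count of 0 over all 10 libraries allows up to 0.0108 CPM. In WT 679_4, the library with the most Ighm at 19024 counts, Igkc had 5 counts and Cd79a 4.

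Cd79b, whose product pairs with that of Cd79a in B cells, was counted in every library. It was at 14.4, 9.98, 10.7, 12.8 and 7.49 CPM in WT 678_2, 678_4, 679_3, 679_4 and 679_5, and at 11, 6.92, 5.11, 6.61 and 6.99 CPM in NFAT5 KO 678_3, 678_5, 678_6, 679_2 and 679_6. Only NFAT5 KO 678_3 lay inside the WT range, and Cd79b did not pass, at a log2 fold change of -0.60 with an SE of 0.25 (adjusted p = 0.169). Most of its counts, 68.4% to 92.2%, were on the transcript with the downstream start. Cd22, an inhibitory receptor of B cells that binds sialic acid, was at 0.767, 1.23, 1.02, 2.66 and 3.90 CPM in the WT libraries and at 0 in the NFAT5 KO libraries except 679_2, at 0.548 CPM. The groups did not overlap, and the adjusted p was 0.0603 at a log2 fold change of -4.03 (SE 1.22). Without NFAT5 KO 679_2, which leaves Cd22 at 0 in that group, it was 0.00493, and with the label prefix as a block 0.0358. Cd22 passed in 1 of the 10 fits without 1 library. Its adjusted p reached 0.136 in those fits, without WT 679_5.

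Melanoma markers other than Gpnmb and Pmel were below the filter and had at most 33 counts in a library. Sox10 and Slc45a2, a factor and a transporter of pigment cells, had no count in any library. Tyr, tyrosinase, had 2 to 10 counts in every library, Dct 2 to 28 and Mlana, a melanosome protein, 0 to 16. Tyrp1 was counted in WT 678_2 (23 counts), WT 679_4 (32) and NFAT5 KO 679_6 (33) and nowhere else. Mitf had at most 26 counts in a library, and its transcripts from the melanocyte start were counted only in WT 678_2 and WT 679_3. The 3 libraries with Tyrp1 were also the 3 highest for Gpnmb.

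Pmel, the fibril protein, passed the filter at 1.03, 0.749, 1.85, 0.472 and 1.27 CPM in WT 678_2, 678_4, 679_3, 679_4 and 679_5, and 1.26, 0.183, 2.20, 0.719 and 1.52 CPM in NFAT5 KO 678_3, 678_5, 678_6, 679_2 and 679_6. The groups overlapped throughout (log2 fold change 0.13, SE 0.63, adjusted p = 0.932). Its exons overlap those of Dgka by 105 bases and those of Cdk2 by 34 on the opposite strand, genes at 334.9 and 47.5 CPM in WT, and with no strand given such reads cannot be told apart. Pmel did not follow the other pigment genes: Tyrp1 was at 0.70 to 2.29 times Pmel in the 3 libraries that held it and at 0 in the other 7. Gpnmb, a glycoprotein made both by pigment cells and by macrophages, was at 24.5, 4.74, 8.15, 13.5 and 6.48 CPM in the WT libraries and 4.64, 2.78, 0, 1.34 and 13.4 CPM in the NFAT5 KO libraries. The groups overlapped, and NFAT5 KO 678_6, with the most Pmel at 2.20 CPM, held no Gpnmb count (log2 fold change -1.36, SE 0.86, adjusted p = 0.374). Without NFAT5 KO 679_6 the value for Gpnmb was -2.40 (adjusted p = 0.124). Over the fits without 1 library the weakest value was -0.90, and the adjusted p reached 0.658, without WT 678_2.

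To see which markers moved together apart from genotype, log2 CPM (prior count 2) had the mean of each genotype subtracted, and 1 anchor gene of each group was compared with the others in 6 pairs. C1qb and H2-Aa gave Pearson's r = 0.63 and Spearman's rho = 0.82 over 10 libraries, with two-sided exact permutation p-values within genotype of 0.0438 and 0.0211, and 0.263 and 0.127 after Benjamini-Hochberg adjustment over the 6 pairs. Without the 2 libraries farthest from the median of C1qb, r was 0.66. C1qb and Pmel gave r = 0.63 and rho = 0.60 (exact permutation p = 0.162 and 0.115, adjusted 0.378 and 0.345), and r turned to -0.16 without NFAT5 KO 678_5 and 679_2, so it rests on those libraries. Ighm and C1qb gave little relation (r = -0.02, rho = 0.17, exact permutation p = 0.920 and 0.600, adjusted 0.920 and 0.720). For the remaining pairs, r lay between -0.15 and 0.48 and rho between 0.03 and 0.38, with exact permutation p-values of at least 0.230 and adjusted values of at least 0.378. No pair passed the adjustment.

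**Figure D5:**
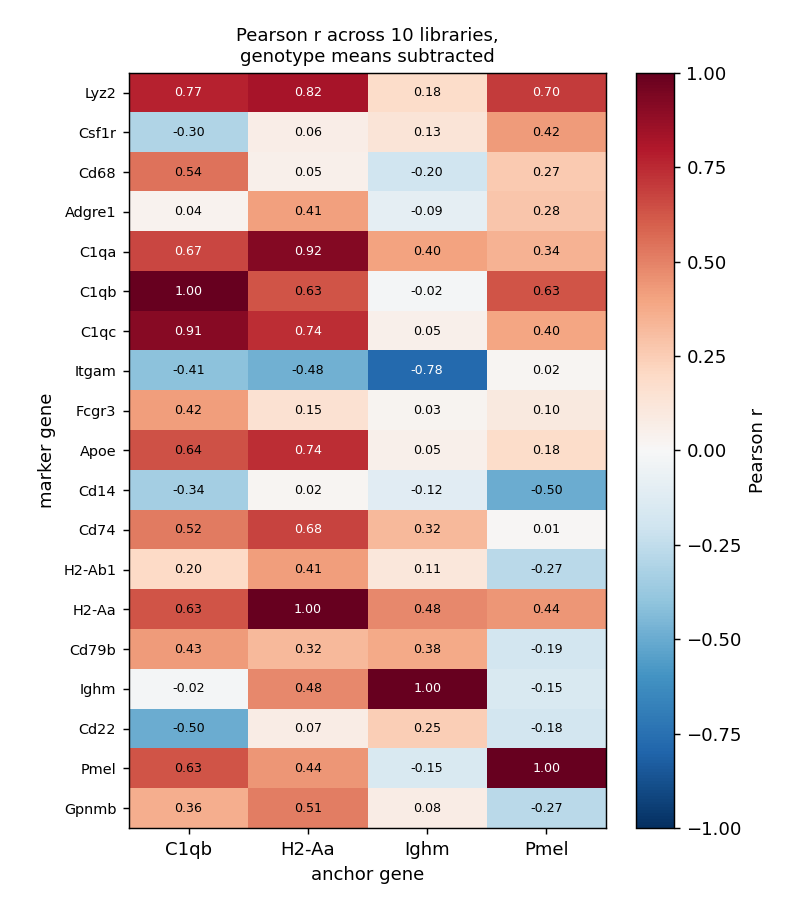
Pearson's r of each of the 19 tested markers with the anchors C1qb, H2-Aa, Ighm and Pmel, over 10 libraries with genotype means subtracted, on a colour scale from -1 (blue) to 1 (red). Lyz2, C1qa, C1qc and Apoe are red under both C1qb and H2-Aa, and Itgam is blue under C1qb, H2-Aa and Ighm.

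Described gene by gene on the same scale, with no test and with the 10 libraries shared by all values, 4 macrophage genes were like both C1qb and H2-Aa. Lyz2 had r of 0.77 and 0.82, C1qa 0.67 and 0.92, C1qc 0.91 and 0.74, and Apoe 0.64 and 0.74. Ranked by r among all genes tested, Lyz2 was at place 233 with C1qb and 95 with H2-Aa. C1qa was at 669 and 7, C1qc at 11 and 299, and Apoe at 843 and 315. Except for C1qc with C1qb and C1qa with H2-Aa, many genes outside the list ranked higher. Values of r this high were therefore not specific to macrophage genes. Cd68 had 0.54 and 0.05, Fcgr3 0.42 and 0.15, and Adgre1 0.04 and 0.41. Of the other MHC class II genes, Cd74 had 0.52 and 0.68, and H2-Ab1 0.20 and 0.415. Csf1r, Itgam, Cd14 and Cd22 were negative with C1qb, from -0.30 to -0.50. Itgam and Ighm gave -0.78, the most negative value of an anchor with a tested marker.

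The genes outside the list with the highest r to each anchor were named by rule. For C1qb they were Bub1 (0.96), Exo1 (0.96), Tmem208 (0.95), Nek2 (0.95) and Cenpf (0.94), of which Bub1, Nek2 and Cenpf act in mitosis. For Ighm they were Me2 (0.96), Gm4316 (0.96), Mgst2 (0.96), Smc4 (0.95) and Gm20559 (0.94). For H2-Aa they were D130020L05Rik (0.96), Gm5940 (0.95), Pecam1 (0.93), Cenph (0.93) and C1d (0.93), and for Pmel they were Mbd1 (0.95), Taf5l (0.95), Tjp3 (0.94), Gm17435 (0.93) and Ndst2 (0.93). Smc4 and Cenph also act in mitosis. Bub1, Nek2, Cenpf, Cenph and Smc4 were lower in NFAT5 KO libraries (log2 fold change -4.67 to -0.91, adjusted p at most 0.00386 in edgeR). None of the 20 is a marker of the anchor's own cell type among the lists used here.

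Other genes of the same cell types were counted from separate lists. Of 27 further macrophage and monocyte genes, 20 were tested, 3 were lower and 1 was higher, beside 5.63% lower and 3.38% higher over all genes, and their median log2 fold change was -0.60, also with Cd300c2 at its bound. Fcer1g, the shared chain of activating Fc receptors, was at 7.61 to 14.8 CPM in WT and 1.06 to 4.36 CPM in NFAT5 KO libraries and was lower by a log2 fold change of -2.13 (adjusted p = 0.00721). Cd300c2 averaged 0.759 CPM in WT and was at 0 in NFAT5 KO libraries, at least 6.70-fold lower against a floor of 3 counts per library. It passed the low-count filter through the WT libraries alone, so its call describes a gene let in by the group where it was high. A filter of at least 5 CPM left it out, and the DESeq2 Wald test gave it no adjusted p. Ctsb, a lysosomal protease, averaged 654.7 and 512.5 CPM (-0.35, adjusted p = 0.0350). It was at 537.3 CPM in NFAT5 KO 678_5, which held no C1q count, and which cells made it was not tested. The call on Ctsb held in 4 of the 10 fits without 1 library (adjusted p 0.00557 to 0.0749). It was lost without NFAT5 KO 679_2 (0.072) and with the label prefix as a block (0.0648). Ccr2, a chemokine receptor that effector CD8 T cells also carry, was higher at 127.2 against 68.9 CPM (0.88, adjusted p = 0.0496). That call was lost without the low-count filter (adjusted p = 0.0799) and with library size alone (0.0569), and held in 2 of the 10 fits without 1 library (0.00395 to 0.122).

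Of 10 further genes of MHC class II presentation, 8 were tested and H2-Oa was lower, at 12.2 against 21.4 CPM (log2 fold change -0.81, adjusted p = 0.0155). Beside this call and those on the next lists, 5.63% of all genes tested were lower. Ciita, the factor that switches on class II genes, averaged 1.15 and 0.465 CPM (adjusted p = 0.630). Of 14 dendritic cell genes, 6 were tested and Naaa was lower, at 3.37 against 7.78 CPM (-1.21, adjusted p = 0.0389). The call on Naaa was lost without the low-count filter (0.0506) and with the label prefix as a block (0.0636). It held in 2 of the 10 fits without 1 library (0.0146 to 0.0969) and was lost without NFAT5 KO 679_2 (0.068). Naaa was the only tested dendritic cell gene with a negative log2 fold change: the median of the 6 was 0.45, and Xcr1, a chemokine receptor of cross-presenting dendritic cells, was at 1.09 (adjusted p = 0.0700). Siglech had no count and Clec9a 10 or fewer. Of 20 further pigment cell genes with a row, 6 were tested and Cdk2, a cell cycle kinase, was lower (-0.99, adjusted p = 0.0101), while 8 had no count. Of 10 neutrophil genes 4 were at 0 and 1 was tested, Clec4d (-1.92, adjusted p = 0.3573). Of 12 genes of fibroblasts and endothelium 6 were at 0 and 2 were tested, Pecam1 (-0.42, adjusted p = 0.106) and Fn1 (1.06, adjusted p = 0.294). Of 4 genes of CD4 T cells 2 were tested, the factors Ikzf2 (-0.74, adjusted p = 0.102) and Zbtb7b (0.80, adjusted p = 0.216).

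Of the 14 T cell identity genes, all tested, 3 were higher in NFAT5 KO libraries, beside 3.38% of all genes, and none was lower. They were Trac (0.50, adjusted p = 0.00937), Cd2 (0.46, adjusted p = 0.0204) and Cd5 (0.29, adjusted p = 0.0468). Leaving out 1 library at a time, Trac held in 10 of 10 fits, Cd2 in 6 and Cd5 in 1 (adjusted p 0.0398 to 0.139). The call on Cd5 was lost without NFAT5 KO 679_2 (0.106). Cd5 was also lost without the low-count filter (0.0882), with library size alone (0.0943) and with the label prefix as a block (0.0853).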

How the data were processed

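The authors deposited 1 table per library with an estimated count and a TPM value per transcript (140919 in each), per the file headers. Per the submitters' processing notes they were made with Salmon 0.14.1. Of strandedness, trimming and annotation release, nothing is stated in the labels. The 32 markers and the other lists were chosen with earlier results of these data known.

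Transcripts were matched by identifier without version to GENCODE M21 (140045, or 99.38%), and the estimated counts of each gene's transcripts were added and rounded. NFAT5 KO and WT were compared over all 10 libraries with edgeR 4.0.16 in R 4.3.3 (filterByExpr, TMM factors of 0.968 to 1.026, robust quasi-likelihood test, Benjamini-Hochberg over 13081 genes, threshold 0.05), which was also tested on simulated data. SE is the absolute log2 fold change over the square root of F, and the biological coefficient of variation was 35.7%. CPM uses TMM-scaled library sizes. Deposited TPM values were summed per gene to compare genes per length. Floors cover counting error only, and no libraries agreed within sampling noise.

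Named genes were all 32 markers, from each other list up to 4 genes that passed, or where none did the 2 nearest to passing, and the 5 genes most like each anchor. Others (Nfat5, Ciita, Xcr1, overlapping genes and genes at 0) were chosen after their values were seen, as were the minimum of 20 C1q counts for a ratio, the bases shown of Ighm and the motifs. Alternatives were DESeq2 1.42.0 size factors and Wald test, library size alone, no filter, at least 5 CPM in at least 5 libraries, the label prefix as a block or alone, and leaving out each library. For relations they were library size alone, a prior count of 0.5, subtraction of prefix means and leaving out each library. Promoters are from RefSeq for GRCm38.p6 and transcript sequences from GENCODE M21. Permutations used Python 3.11.15.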

Additional observations from a re-analysis of the deposited data

Results flagged for a closer look

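For each tested marker, each summed group of markers and the membrane share of Ighm, a library was set apart where its gap to the nearest library of its genotype exceeded 0.71 of the range of the 5. Of 50 groups looked at, 6 held such a library, and chance sets apart about 1 in 20. WT 678_4 was low for Cd74 at 12.54 CPM (nearest 40.42), for H2-Aa at 1.839 CPM (nearest 9.377) and for the 3 MHC class II genes summed at 24.97 CPM (nearest 71.37), and the 3 values share genes. In the same library C1q summed to 8.01 CPM, the lowest of WT, and Igkc and Ms4a1 had their highest counts. NFAT5 KO 679_2 was low for Cd68 at 11.75 CPM (nearest 18.42) and was the 1 NFAT5 KO library with Cd22, at 0.548 CPM. WT 678_2 was high for Cd14 at 5.439 CPM (nearest 1.226).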

How the results depend on the processing

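Genes lower in NFAT5 KO numbered 737 and genes higher 442, and leaving out 1 library gave 494 to 786 and 202 to 490. The DESeq2 Wald test gave 811 higher genes. Libraries of prefix 678 alone gave 0 higher and 0 lower genes, and those of 679 alone 71 and 254. Of the markers, 2 were lower in the fit described, 1 at a filter of at least 5 CPM (which leaves out Adgre1), 0 within either prefix alone, 4 in the DESeq2 Wald test (with Cd74 and Cd22) and 0 to 3 on leaving out 1 library, and none was higher in any fit. Over 333 fits of the 19 markers under the alternatives, 306 kept direction and side of the threshold, 17 lost a call, 5 gained one and 5 turned in sign. Itgam was at -0.17 within prefix 678. Pmel, at -0.23 to 0.40 on leaving out 1 library, was at -0.10 within prefix 679, and at -0.23 without NFAT5 KO 678_6, -0.07 without WT 679_4 and -0.002 without NFAT5 KO 679_6. On leaving out 1 library, r of C1qb with Ighm ran from -0.13 to 0.12, of Pmel with Ighm from -0.33 to 0.24 and of Ighm with H2-Aa from -0.004 to 0.69. The cause of these changes was not tested. No paired analysis was possible because the groups share no replicate number, and the label prefix is the only label they share. Markers with under 3 counts in a library could not be told from absent RNA at this depth.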
